A study of Mus musculus with 9 samples.

Results

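Constant regions at gene ends are the stretches of open chromatin that were called as peaks in all 9 ATAC-seq libraries of the series and whose midpoint lay within 1 kb of either end of a protein-coding gene. Peaks of the 9 lists that overlapped by at least 1 bp were merged into 116362 union regions. Of these, 26020 held a peak in every library, and 7732 of those, or 29.7%, lay at a gene end. The members were selected on peak calls in the same lists, which hold the row order used below as well, and on distance to a gene end, so neither presence nor distance is a finding. ATAC-seq uses the Tn5 transposase, which inserts sequencing adapters where DNA is accessible. The cells were the TOT2N variant of E14, a mouse embryonic stem cell line. The TetR-MYBTA line carried a stable integration of a TetR-MYBTA construct, the TetR line carried a stable integration of a TetR construct, and the WT line carried neither. TetR is the bacterial tetracycline repressor, a DNA-binding protein, and MYB activates genes in blood progenitors, where it was first studied. There were 3 libraries per line. Neither the promoter that drives each construct, nor whether a line is 1 clone, nor whether its libraries came from separate cultures is given in the sources used here, so each test measures a spread between libraries that may be technical.

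The start of an active gene is usually kept free of nucleosomes, because general transcription factors, RNA polymerase II and sequence-specific activators occupy it. Many mammalian promoters, above all those of widely expressed genes, lie in CpG islands and are open in most cell types. Enhancers, which lie inside or between genes, are open in fewer cell types. The 3' end of a gene is less often nucleosome-free.

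The submitters' notes name the mm10 build, and gene positions came from the RefSeq table of GRCm38.p6. On 18 autosomes the commonest offset between gene ends and the constant regions around them, in bins of 200 bp, was 0 bp. On chromosome 8 from 40 Mb the commonest offset was 181700 bp, and on chromosome X from 20 Mb it was 600 bp, whereas below 20 Mb it was 0 bp on both. Gene names could therefore not be read from peak positions over the greater part of these chromosomes, and both were set aside whole. The 101 members on chromosome 8 and the 263 on X are left out of every count of genes and of the counts below unless named. The other 7368 members are described here. Libraries held 16.4 M to 23.0 M tags, and HOMER called peaks of one size per library, 193 to 208 bp.

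The deposited lists carry no usable height, since the score is 1 in every row. The measure used here is a region's place in the row order of a list, given as a percentile among the 26020 constant regions, with 100 at the head of the list. It is a rank within a library: if one class of regions moves down, another must move up. What sets the order is not stated in the files. Rows follow the peak numbers given by HOMER, the peak caller, within each chromosome, and the lowest rank correlation of row and number in any library was 0.990.

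The promoters below come from the RefSeq table of GRCm38.p6 and give the 200 bases before the gene start, 5′ to 3′ along the gene. Capitals mark a CCAAT box (CCAAT or ATTGG), a GC box (GGGCGG or CCGCCC) or the core of the NRF1 site (GCATGCG or CGCATGC). The first set is Sel1l (chr12:91849158-91849357, minus strand), Lgr4 (chr2:109917447-109917646, plus strand) and Gm5165 (chr17:17234703-17234902, plus strand), which show the starts of 3 of the 10 members nearest the head of the lists.
Sel1l: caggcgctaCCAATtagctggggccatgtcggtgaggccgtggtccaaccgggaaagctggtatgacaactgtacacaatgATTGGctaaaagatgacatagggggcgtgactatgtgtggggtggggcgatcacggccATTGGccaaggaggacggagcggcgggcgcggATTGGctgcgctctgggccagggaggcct
Lgr4: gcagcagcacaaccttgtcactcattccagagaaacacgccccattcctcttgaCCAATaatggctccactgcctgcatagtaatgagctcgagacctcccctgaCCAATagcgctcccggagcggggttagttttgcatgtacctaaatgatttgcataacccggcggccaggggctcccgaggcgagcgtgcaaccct
Gm5165: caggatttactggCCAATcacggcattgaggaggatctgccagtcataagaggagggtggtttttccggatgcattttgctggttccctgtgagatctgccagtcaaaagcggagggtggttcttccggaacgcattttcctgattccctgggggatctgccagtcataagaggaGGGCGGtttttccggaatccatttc

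The Sel1l promoter holds 4 CCAAT boxes and no GC box, Lgr4 holds 2 CCAAT boxes, and Gm5165 holds 1 CCAAT box and 1 GC box. Printed promoters in both sets are examples picked without a fixed rule, so their boxes do not stand for shares over members. The second set shows starts whose members differed between lines and are described with the comparisons: Ephb4 (chr5:137349909-137350108, plus strand), Mertk (chr2:128698715-128698914, plus strand), Kmt2a (chr9:44881290-44881489, minus strand), Tex19.1 (chr11:121145943-121146142, plus strand) and Zfp677 (chr17:21383548-21383747, plus strand).
Ephb4: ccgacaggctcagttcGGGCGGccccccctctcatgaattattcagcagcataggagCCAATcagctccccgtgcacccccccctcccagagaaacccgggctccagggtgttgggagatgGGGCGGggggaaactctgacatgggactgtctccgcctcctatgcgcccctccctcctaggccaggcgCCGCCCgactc
Mertk: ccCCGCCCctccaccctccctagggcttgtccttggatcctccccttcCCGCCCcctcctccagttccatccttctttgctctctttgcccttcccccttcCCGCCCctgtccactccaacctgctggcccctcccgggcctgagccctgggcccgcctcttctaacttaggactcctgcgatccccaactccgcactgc
Kmt2a: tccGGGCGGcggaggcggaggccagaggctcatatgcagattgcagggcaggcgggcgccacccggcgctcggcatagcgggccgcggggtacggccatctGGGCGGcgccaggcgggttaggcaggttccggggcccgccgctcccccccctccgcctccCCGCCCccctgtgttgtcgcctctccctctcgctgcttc
Tex19.1: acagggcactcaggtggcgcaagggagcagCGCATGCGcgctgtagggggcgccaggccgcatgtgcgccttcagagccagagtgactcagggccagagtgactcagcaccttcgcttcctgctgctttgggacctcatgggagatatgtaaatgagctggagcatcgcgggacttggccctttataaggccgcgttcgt
Zfp677: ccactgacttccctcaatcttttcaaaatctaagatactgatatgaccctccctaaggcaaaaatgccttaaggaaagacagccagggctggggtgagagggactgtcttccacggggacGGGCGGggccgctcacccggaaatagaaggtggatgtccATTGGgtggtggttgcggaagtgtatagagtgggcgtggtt

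Nearly all members with a known orientation lay at gene starts. The gene table has no strand, so strand was taken from the promoter table, which gave it for the nearest gene of 6013 members. Of these, 5728 (95.3%) were nearest a start and 285 a 3' end. At starts the midpoint lay a median of 17 bp upstream, with quartiles at -76.5 and 64.6 bp, and 4661 members (81.4%) lay within 250 bp of the start. At 3' ends only 55 members (19.3%) lay within 250 bp, and the quartiles of the offset were -536 and 603 bp. The histogram of midpoints shows 1 sharp peak just upstream of the start and a longer tail into the gene than away from it.

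**Figure D1:**
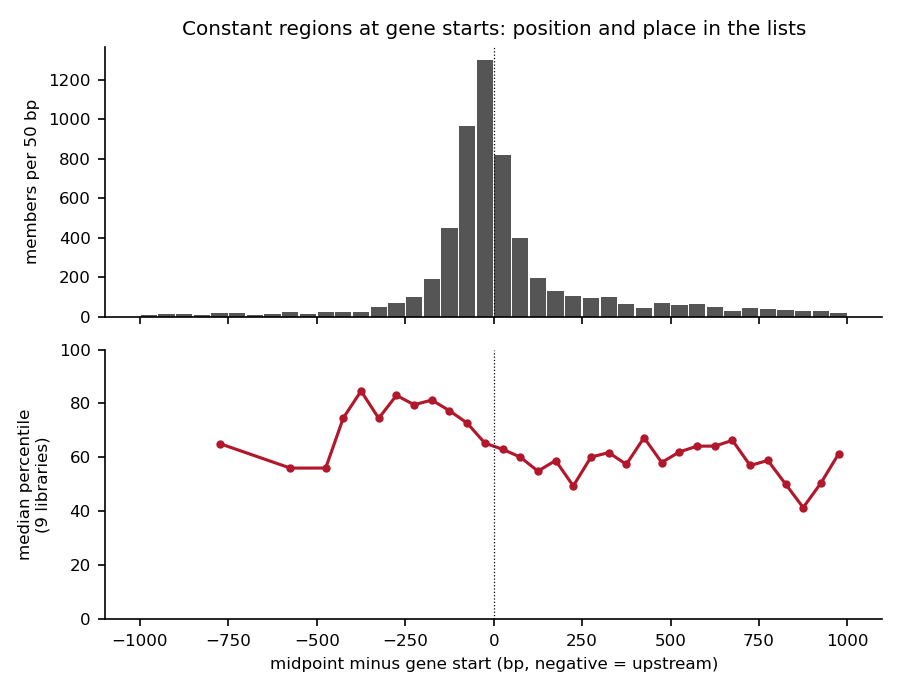
Upper panel: number of members per 50 bp by distance of the midpoint from the nearest gene start, for 5728 members, negative values upstream. Lower panel: median percentile over the 9 libraries in the same bins, shown where a bin holds at least 20 members; members up to 250 bp upstream had a median of 71.3 and members up to 250 bp downstream 59.6.

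Place in the lists varied with position. Members at starts had a median percentile of 67.1 and members at 3' ends 40.1. Within 250 bp of a start, the 3004 upstream members had a median of 71.3 and the 1650 downstream members 59.6, while the 1067 members farther from the start had 63.1. The 628 members that lay within 1 kb of starts on both strands, as at divergent gene pairs, had a median of 76.3, above the 65.8 of the 5100 other members at starts. A divergent promoter serves a pair of genes transcribed away from each other. Members spanned a median of 277 bp over the merged peaks of the 9 libraries, against 265 bp for constant regions inside genes and 262 bp between genes. Their peak centres also varied a little more between libraries, with a median SD of 24.9 bp, against 21.1 bp inside genes and 19.9 bp between genes. With members split into 4 equal groups by place, that SD was 21.2 bp in the group nearest the head of the lists and 30.3 bp in the group nearest the foot.

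Regions just outside the rule were lower in the lists. On the same chromosomes, 1310 regions at gene ends had a peak in 8 of the 9 libraries, and 434 of them lacked it in TetR-MYBTA replicate 3, the library with the shortest list. By place in the whole list, members had a median percentile of 83.6 and those regions 59.1. The 114 constant regions between 900 and 1000 bp from a gene end had a median percentile of 52.2, and the 113 between 1000 and 1100 bp had 49.8. The lower place of the regions with 8 libraries follows from the threshold on peak calls, whereas the threshold on distance did not use place. Both sets of values are given without a test.

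The members touched 8019 of 19878 protein-coding genes on these chromosomes, or 40.3%. Of the genes, 475 had at least 2 members and 9 had 3. Conversely, 1116 members (15.1%) lay within 1 kb of ends of at least 2 genes. The members nearest the head of the lists lay at Zfp960, Fam160a2, Gm5165, Sel1l, Desi2, Kbtbd3, Gm45871, Zfp654, Zbtb20 and Lgr4. The regions at Fam160a2, Kbtbd3 and Zfp654 also lie within 1 kb of ends of Cnga4, Aasdhppt and Cggbp1. Sel1l encodes an adaptor of the degradation of misfolded proteins of the endoplasmic reticulum, Lgr4 a receptor for R-spondins, and Zfp960, Zfp654 and Zbtb20 zinc finger proteins. These members were chosen for their high place in all 9 libraries, so likeness between lines there is given by the choice. The Sel1l member had 99.89, 99.97 and 99.97 in TetR-MYBTA, 99.95, 99.96 and 99.97 in TetR, and 99.89, 99.98 and 99.98 in WT. The lowest members lay at Adam12, Erich5, Rab27b, Abcc3 and Wnk4, the last also near Vps25. Adam12, which encodes a membrane metalloprotease, had 0.713, 2.44 and 0.302 in TetR-MYBTA, 2.89, 5.19 and 1.44 in TetR, and 8.61, 0.498 and 8.72 in WT.

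Genes that every cell uses were more often represented than tissue-restricted families. A member lay at 63 of 79 genes of cytosolic ribosomal proteins, 52 of 75 of mitochondrial ribosomal proteins, 25 of 36 of proteasome subunits, 31 of 45 of complex I subunits and assembly factors, and 16 of 17 of cytosolic aminoacyl-tRNA synthetases. The same held for 23 of 27 Mediator subunits, 26 of 42 general transcription factors and RNA polymerase II subunits, 17 of 23 SR and snRNP proteins of the splicing machinery, 12 of 14 replication factors and 6 of 8 chaperonin subunits. By contrast, a member was found at 1 of 39 Hox genes, 2 of 49 keratins and 9 of 1447 olfactory and vomeronasal receptors. Blood lineage genes, with 5 of 13, were close to the share of 40.3% over all genes. Vmn1r4, a vomeronasal receptor gene, nevertheless had a member with a mean percentile of 95.9.

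Stem cell marker genes were represented in part. A member lay at 8 of 14 stem cell marker genes, 0 of 6 feeder fibroblast markers, 0 of 2 neural markers, 0 of 4 endoderm markers and 4 of 6 blood markers. Klf5, a transcription factor of naive pluripotency, stood at 98.7 on average and Tbx3 at 74.5. Sox2 and Myb had members 53 and 22 bp from their starts. Klf4 had a peak in 8 of 9 libraries, lacking in 1 TetR-MYBTA library, and so did Ep300, a histone acetyltransferase that works with MYB. Nanog had a peak at its start in 0 TetR-MYBTA libraries, 3 TetR libraries and 1 WT library. No peak lay within 1 kb of either end of Pou5f1 or Esrrb in any library, so these defining genes carry no constant region there. The blood genes with a member were Cd34, Cebpa, Kit, Spi1 and Tal1, and an open region at a start does not show that a gene is transcribed.

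As a class, members stood nearer the head of the list than other constant regions in every library, and highest in WT. The median percentile of the members was 63.5, 61.8 and 63.4 in the TetR-MYBTA libraries, 64.7, 65.0 and 63.9 in the TetR libraries, and 70.3, 69.7 and 71.0 in the WT libraries. The WT libraries did not overlap those of either construct line. Averaged over the 3 libraries of a line, the median of constant regions inside genes was 42.0 ± 0.36 for TetR-MYBTA, 45.0 ± 0.27 for TetR and 41.9 ± 0.36 for WT (SD). The median of regions between genes was 47.7 ± 0.54 for TetR-MYBTA, 40.9 ± 0.41 for TetR and 39.6 ± 0.44 for WT. Among the first 1000 rows of each list, members numbered 482, 465 and 491 for TetR-MYBTA, 449, 457 and 425 for TetR, and 581, 565 and 577 for WT. The share of tags that fell in peaks was 7.57, 7.44 and 5.48% for TetR-MYBTA, 9.78, 9.72 and 9.30% for TetR, and 7.84, 8.09 and 7.79% for WT, and its part in these differences was not tested.

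**Figure D2:**
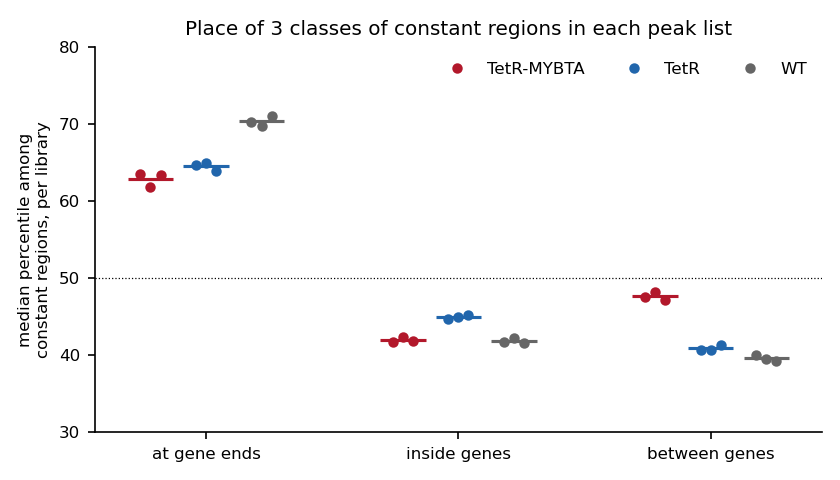
Median percentile of each class of constant regions in each library (points) and the mean of 3 libraries (bars), for TetR-MYBTA, TetR and WT; chromosomes 8 and X are left out of each class and the dotted line marks 50. Members at gene ends average 62.9 for TetR-MYBTA, 64.5 for TetR and 70.4 for WT, and regions between genes are highest in TetR-MYBTA.

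The first comparison asked which members differed between TetR-MYBTA and WT. More were lower than higher in TetR-MYBTA, and the starts of Ephb4 and Epcam fell most. Of 7368 members, 370 (5.02%) rose and 1607 (21.8%) fell in TetR-MYBTA (limma across all 26020 constant regions, Benjamini-Hochberg adjusted p under 0.05). Over all constant regions 13.7% rose and 14.1% fell. Inside genes 12.3% rose and 13.3% fell, and between genes 22.5% rose and 8.98% fell. When ranks were taken among the 7368 members alone, 738 rose and 586 fell, so the balance of the 2 directions depends on which regions are ranked together. By place in the whole list 187 rose and 1660 fell. Without 1 WT library the members that fell numbered 1044 (without replicate 1), 1042 (without replicate 2) or 963 (without replicate 3).

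Ephb4, which encodes a receptor for ephrins, had percentiles of 9.12, 3.63 and 6.16 in TetR-MYBTA, against 68.3, 70.4 and 68.7 in WT, and 45.2, 45.9 and 38.4 in TetR. The lines did not overlap, and the difference between TetR-MYBTA and WT was -62.8 ± 7.11 percentile points (SE, limma adjusted p = 1.54e-04). Its promoter, shown above, holds 3 GC boxes and 1 CCAAT box. Epcam, an adhesion molecule of epithelia and of embryonic stem cells, had 30.3, 14.3 and 29.5 in TetR-MYBTA and 87.4, 84.3 and 82.2 in WT, a difference of -59.9 ± 7.76 points (limma adjusted p = 2.56e-04). Mertk, a receptor tyrosine kinase for the uptake of dying cells, had 4.28, 7.65 and 2.91 in TetR-MYBTA and 73.6, 60.3 and 44.2 in WT. Its printed promoter holds 3 GC boxes and no CCAAT box. Cldn3, a tight junction claudin, had 5.19, 10.4 and 37.1 in TetR-MYBTA and 82.8, 67.5 and 66.2 in WT. Abcg1, a cholesterol exporter, fell by 55.8 points and Gm5148 by 57.8 points. The members named here and in the next comparisons were chosen for a called difference without overlap between the lines compared, so the lack of overlap follows from the choice.

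The members that rose most against WT were at Cfhr3, Dnajb3, Zfp677, Thsd7b, Rfpl4 and Gm5136. Cfhr3, a gene related to complement factor H, had 91.3, 91.0 and 78.5 in TetR-MYBTA and 41.6, 11.8 and 45.4 in WT, a difference of 54.0 ± 9.30 points (limma adjusted p = 0.00124). Dnajb3, which encodes a DnaJ co-chaperone, had 90.9, 75.4 and 82.3 in TetR-MYBTA and 34.9, 24.7 and 39.8 in WT. Zfp677, a zinc finger gene, had 68.5, 83.0 and 79.8 in TetR-MYBTA and 36.5, 23.5 and 26.3 in WT, and its promoter holds 1 CCAAT box and 1 GC box. Rfpl4, known from mouse oocytes, rose at its 3' end by 46.4 ± 6.95 points. Cfhr3, Dnajb3 and Thsd7b are on chromosome 1 beyond 88 Mb, the stretch described below.

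The second comparison set TetR-MYBTA against TetR, its construct control without the MYB part. Here 611 members (8.29%) rose and 696 (9.45%) fell in TetR-MYBTA, against 13.4% and 12.4% over all constant regions (limma, adjusted p under 0.05). Inside genes 11.3% rose and 15.5% fell, and between genes 20.5% rose and 10.9% fell. Ranked among members alone, 561 rose and 424 fell. By place in the whole list 286 rose and 1021 fell. The members that fell numbered 438 without TetR replicate 1 and 428 without TetR replicate 2.

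The members that rose most were at Terb2, Tex19.1, Cfhr3, Gm5136, Kif2b and Aim2. Of these, Tex19.1 and Kif2b are on chromosome 11, where 48.4% of members rose, and Cfhr3 and Aim2 on chromosome 1 beyond 88 Mb, where 131 of 330 rose. Terb2, which encodes a protein that tethers telomeres in meiosis, had 75.03, 61.4 and 74.98 in TetR-MYBTA and 8.49, 6.35 and 8.81 in TetR, a difference of 62.6 ± 7.66 points (limma adjusted p = 8.61e-05). The member lies within 1 kb of an end of Patl2 too, and WT libraries had 52.2, 59.5 and 50.6. Tex19.1, which restrains retrotransposons in germ cells and pluripotent cells, had 63.5, 84.9 and 67.5 in TetR-MYBTA and 2.78, 26.6 and 21.2 in TetR. It differed by 55.1 ± 9.36 points (limma adjusted p = 7.38e-04), and its promoter holds the NRF1 core on both strands, in 1 run of overlapping letters. Aim2, a sensor of cytosolic DNA, had 96.1, 96.8 and 98.1 in TetR-MYBTA and 53.0, 47.2 and 38.8 in TetR. A further member on the other side of the Aim2 start rose by 34.6 points. Cfhr3, Gm5136 and Kif2b, a microtubule-depolymerising kinesin, rose by 53.8, 53.4 and 51.4 points. In TetR the 3 values of Kif2b were 0.678, 0.717 and 1.32, at the foot of the lists.

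The members that fell most against TetR included those at Bub1b, Tmsb10, Lrrk2, Ptpro and Ptprn2. Tmsb10 and Ptpro are on chromosome 6, where 82 of 429 members fell and 15 rose, beside 696 of 7368 (9.45%) that fell over all members. Ptprn2 is on chromosome 12, where 48 of 294 fell and 3 rose. Bub1b and Lrrk2 are on chromosomes 2 and 15, where 69 of 630 and 15 of 285 fell. The Bub1b member lay 261 bp inside the 3' end of this spindle checkpoint gene and had 8.05, 25.1 and 2.93 in TetR-MYBTA and 82.7, 75.5 and 71.8 in TetR, a difference of -64.6 ± 9.05 points (limma adjusted p = 1.98e-04). A separate member at the Bub1b start, 18 bp from it, had 33.4, 42.3 and 13.3 in TetR-MYBTA and 48.5, 57.0 and 40.3 in TetR and was not called (limma adjusted p = 0.197). Tmsb10, an actin-binding thymosin, had 13.9, 19.02 and 12.7 in TetR-MYBTA and 80.7, 79.4 and 74.7 in TetR. The WT mean lay between those of the other lines at each of these 5 regions. Tmsb10 had a further member, with 50.8, 54.6 and 52.3 in TetR-MYBTA and 91.3, 92.4 and 91.9 in TetR. Lrrk2, a protein kinase, and the receptor-type phosphatase genes Ptpro and Ptprn2 fell by 61.5, 57.8 and 55.7 points.

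The third comparison set TetR against WT. In TetR 268 members (3.64%) rose and 1055 (14.3%) fell, against 8.51% and 9.24% over all constant regions (limma, adjusted p under 0.05). Inside genes 9.66% rose and 6.99% fell, and between genes 9.78% rose and 7.69% fell. Ranked among members alone, 639 rose and 548 fell, and by place in the whole list 116 rose and 289 fell. Leaving out TetR replicate 1, 2 or 3 gave 135, 128 or 150 members that rose and 685, 688 or 637 that fell, and leaving out WT replicate 1, 2 or 3 gave 606, 580 or 545 that fell. The comparisons share libraries, so a member that fell against WT in both construct lines counts in both through the same 3 WT lists.

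Kmt2a, which encodes a histone H3 lysine methyltransferase that binds MYB through its partners, had 21.0, 7.83 and 6.19 in TetR and 61.6, 62.2 and 67.3 in WT, a difference of -52.1 ± 8.43 points (limma adjusted p = 0.00125). TetR-MYBTA libraries had 46.4, 31.7 and 16.9. Its promoter holds 3 GC boxes and no CCAAT box. Bnip5 had 0.613, 8.47 and 2.696 in TetR at its 3' end and 56.8, 60.6 and 63.0 in WT. Fbxl21, an F-box gene, Mettl27 and Pth2, both at their 3' ends, and Clec12a, a C-type lectin, fell by 48.1 to 49.0 points, and the Pth2 call did not hold by place in the whole list (limma adjusted p = 0.127). The other members at Mettl27 and Clec12a, at the opposite end of each gene, were not called in this comparison (limma adjusted p = 0.591 and 0.264). Gm1070 had 89.1, 85.1 and 86.2 in TetR and 18.98, 20.3 and 41.6 in WT, a rise of 59.8 ± 8.21 points (limma adjusted p = 3.98e-04). It is on chromosome 6, where 29 of 429 members (6.76%) rose and 22 fell in this comparison, beside 3.64% that rose over all members. Fbln5 and Lama4, genes of the elastic fibre and the basement membrane, had 67.8, 70.5 and 49.4 and then 56.1, 47.8 and 71.5 in TetR. Their WT values were 8.22, 7.13 and 12.04, and 3.68, 9.09 and 22.8. C1qtnf2, the chemokine gene Cxcl5 and the Bub1b member rose by 44.8, 42.1 and 40.4 points, and the calls of Cxcl5 and Bub1b were lost by place in the whole list (limma adjusted p = 0.0691 and 0.164).

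**Figure D3:**
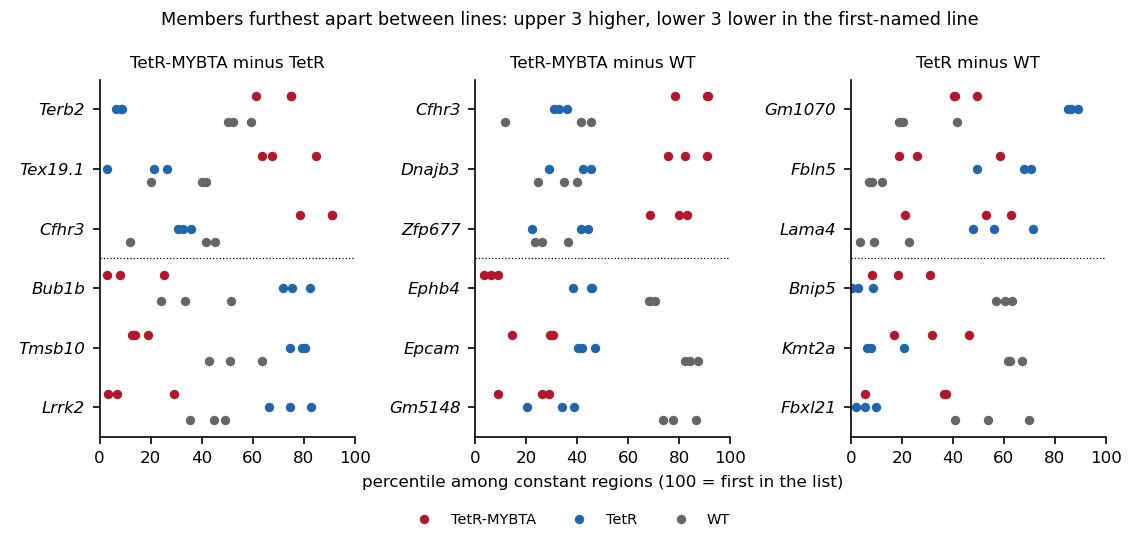
Percentile of 18 members in each of the 9 libraries, by contrast: the 3 members that rose most (above the dotted line) and the 3 that fell most (below it) in the first-named line, points coloured TetR-MYBTA, TetR and WT. At Ephb4 the 3 lines do not overlap, with means of 6.30 for TetR-MYBTA, 43.1 for TetR and 69.1 for WT.

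The member at Myb and some of those at its partner genes were lower in TetR-MYBTA than in WT. Of 11 regions at genes of the MYB family, its coactivators and the MuvB complex, 0 rose and 6 fell in TetR-MYBTA against WT. Their median difference was -18.1 points, beside 21.8% that fell and a median of -5.71 over all members. In TetR against WT, 0 of the 11 rose and 3 fell, with a median of -11.8 points. Over all members 14.3% fell there, with a median of -3.56. Myb had 16.8, 24.3 and 5.68 in TetR-MYBTA and 44.8, 44.1 and 39.2 in WT, a difference of -27.1 ± 7.03 points (limma adjusted p = 0.0116). The TetR libraries had 30.2, 25.4 and 19.9, and the difference from TetR was -9.57 ± 7.03 points (limma adjusted p = 0.344). Ranked among members alone, Myb did not pass against WT (limma adjusted p = 0.161). Crebbp, an acetyltransferase that binds MYB, had 7.02, 0.544 and 1.78 in TetR-MYBTA and 32.1, 14.6 and 23.7 in WT. Its call (limma adjusted p = 0.0277) was lost in 4 of the 9 fits that left out a library and among members alone (limma adjusted p = 0.269). Mybl2, the MYB relative of dividing cells, had 86.2, 73.4 and 89.1 in TetR-MYBTA and 92.0, 92.2 and 88.5 in WT and did not pass (limma adjusted p = 0.0660). The other 4 members of the list that fell in TetR-MYBTA against WT were at Kmt2a, Lin52, Rbbp4 and Taf12. Those at Kmt2a and Rbbp4 fell in TetR against WT as well, as did the member at Men1. Against TetR no member of the list was called in either direction.

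Of 9 regions at pluripotency genes, 0 rose and 3 fell in TetR-MYBTA against WT, at Sall4, Tbx3 and Fgf4, with a median difference of -16.5 points beside the same 21.8% and -5.71 over all members, and 1 rose against TetR, at Tfcp2l1 on chromosome 1. Sox2 had 68.3, 69.6 and 70.8 in TetR-MYBTA, 62.2, 68.1 and 63.8 in TetR and 76.4, 79.4 and 82.8 in WT. TetR and WT did not overlap at Sox2 and differed by -14.8 ± 4.58 points (limma adjusted p = 0.0371), but the call was lost in 6 of the 9 fits that left out 1 library, whose adjusted p reached 0.139. The Sox2 call was lost as well with normal scores, with the replicate block, by place in the whole list and in ranks among members only (limma adjusted p = 0.0508, 0.0527, 0.118 and 0.184). Among the blood genes, the member at Cd34, a surface marker of progenitors, rose against WT by 12.9 points in TetR-MYBTA and by 8.84 points in TetR. Cd34 is on chromosome 1 beyond 88 Mb, the stretch described below. There 95 of 330 members rose and 0 fell in TetR-MYBTA against WT, and 11 rose and 29 fell in TetR against WT. Spi1, a master regulator gene of myeloid cells, fell by 30.1 points in TetR-MYBTA against WT. Tal1, a regulator of blood stem cells, fell by 20.5 points in TetR-MYBTA against TetR and rose by 27.1 points in TetR against WT. The members at Kit and Cebpa were not called in any comparison.

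At genes of the protein and RNA machinery most members did not pass against WT. Over all members 5.02% rose and 21.8% fell in TetR-MYBTA against WT, and 3.64% rose and 14.3% fell in TetR against WT. For the 64 regions at cytosolic ribosomal protein genes, TetR-MYBTA had 1 that rose and 19 that fell against WT, and TetR had 0 and 18. The median differences were -10.1 and -13.2 points, beside -5.71 and -3.56 over all members. Of 19 regions at SR and snRNP genes, 0 rose and 9 fell in TetR-MYBTA and 0 rose and 7 fell in TetR. Srsf9, a splicing regulator, averaged 11.3 ± 2.15 for TetR-MYBTA, 2.56 ± 1.74 for TetR and 35.97 ± 5.10 for WT (SD, n = 3 each). Regions at general transcription factor and polymerase II genes numbered 28, of which 9 fell and 1 rose in TetR-MYBTA against WT. Mediator subunits gave 8 that fell among 23 in TetR against WT and 4 in TetR-MYBTA. For mitochondrial ribosomal proteins, 9 of 53 fell in TetR-MYBTA and 12 in TetR, and for complex I 12 of 33 and 6. Proteasome genes had 2 of 25 that fell in TetR-MYBTA and 4 in TetR. These list counts were not tested, and those of the proteasome in both lines, and of mitochondrial ribosomal proteins and Mediator in TetR-MYBTA, lie near or below the shares over all members. A member at genes of more than 1 list, as at Rps28 and Ndufa7 or at Fau and Mrpl49, counts in each. Rpl15, the highest member at a cytosolic ribosomal protein gene, averaged 98.3 for TetR-MYBTA, 99.6 for TetR and 97.7 for WT and was not called in any comparison.

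Calls were not spread evenly over chromosomes. In TetR-MYBTA against TetR, 304 of the 628 members on chromosome 11 rose and 1 fell, and 135 of the 527 on chromosome 1 rose and 15 fell. Outside both, 172 of 6213 members (2.77%) rose and 680 (10.9%) fell. Chromosome 6 had the largest share that fell in this comparison, 82 of 429 members, and 15 rose there. The bounds used next, 88 Mb on chromosome 1 and 44 Mb on chromosome 11, were set with earlier results of these data known. A contrast between their 2 sides therefore follows in part from that choice. On chromosome 1, 131 of 330 members from 88 Mb rose and 4 fell, with a median of 8.31 points. Below 88 Mb, 4 of 197 rose and 11 fell. Against WT the same distal members gave 95 that rose and 0 that fell in TetR-MYBTA. On chromosome 11 below 44 Mb, 66 of 114 members rose and 0 fell in TetR-MYBTA against TetR, and 37 rose and 0 fell against WT. Beyond 44 Mb, 238 of 514 rose against TetR, but 33 rose and 4 fell against WT, with a median of 1.26 points. There the TetR line was low: 179 of 514 members fell and 5 rose in TetR against WT, with a median of -13.3 points.

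Srsf2 and Polr2a are examples from chromosome 11. Srsf2, a core splicing factor, had 81.5, 83.1 and 87.3 in TetR-MYBTA, 56.05, 49.7 and 56.8 in TetR and 82.7, 90.2 and 91.8 in WT. Polr2a, which encodes the catalytic subunit of RNA polymerase II, had 85.0, 76.8 and 69.4 in TetR-MYBTA, 49.0, 62.3 and 37.9 in TetR and 83.1, 84.1 and 80.8 in WT. TetR lay below both other lines at each. Both were picked after their values were seen, as were Psmb3, Psmd3 and Psmd12, the 3 proteasome genes that rose in TetR-MYBTA against TetR, all on chromosome 11. Chromosome 19 had the lowest median in TetR-MYBTA against WT, -13.5 points, and 0 of 242 members rose and 87 (35.95%) fell. Chromosomes 5, 9 and 15 were close to it, with 34.9, 33.8 and 30.5% that fell and 3.04, 2.17 and 1.40% that rose. Their medians were -10.8, -12.1 and -9.82 points. Of the 6213 members outside chromosomes 1 and 11, 3.14% rose and 25.4% fell in this comparison. Outside chromosomes 1 and 11, every chromosome had a negative median in TetR-MYBTA against WT, between -13.5 and -2.91 points.

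**Figure D4:**
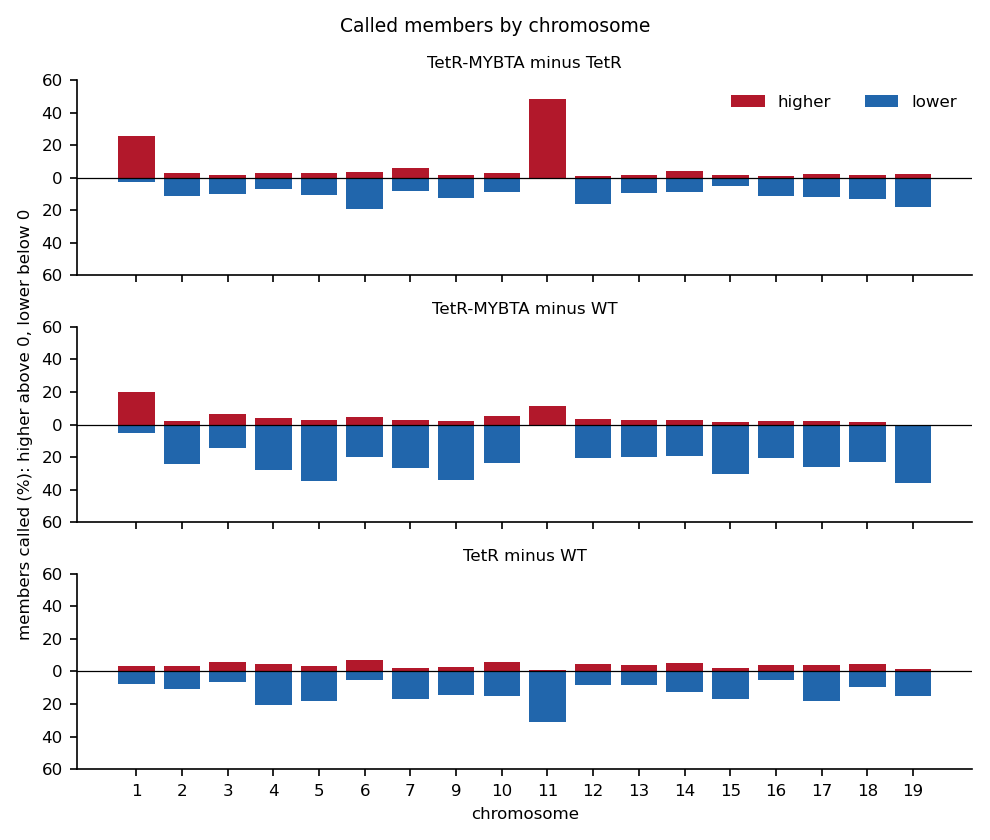
Percent of the members of each chromosome that rose (above 0) or fell (below 0) in each contrast, without chromosomes 8 and X. Chromosomes 1 and 11 stand out among those that rose in TetR-MYBTA against TetR, with 25.6 and 48.4%, and chromosome 11 among those that fell in TetR against WT, with 31.4%.

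Promoters that overlap a member had another base composition and other short motifs than those that do not. Windows ran from 250 bases before to 50 after the gene start, 19433 in all, of which 5973 overlapped a member. Their median GC content was 62.3%, against 53.0% in the other 13460, and the observed over expected CpG ratio was 0.809, against 0.347. Motifs were searched on both strands, and no searched motif contains another. The GC box (GGGCGG) was in 72.1% of windows with a member and 34.9% of the others, and in 46.3% of all windows. The CCAAT box was in 45.5% and 34.2%, and in 37.7% of all. The ETS site (CCGGAAG) was in 22.8% and 6.66%, and in 11.6% of all. The NRF1 core (GCATGCG) was in 8.04% and 2.86%, and in 4.45% of all. The TATA box (TATAAA) went the other way, with 5.29% and 15.9%, and 12.7% of all. Differences in GC content alone alter how often such letters occur, and their part was not tested.

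The remaining motifs were rarer or closer to even. For windows with a member, the other windows and all windows, the shares were 7.97, 5.44 and 6.22% for the YY1 site (AAGATGG) and 6.73, 2.56 and 3.84% for the cyclic AMP response element core (TGACGTC). They were 11.4, 6.20 and 7.80% for the E-box (CACGTG), 4.97, 1.40 and 2.501% for the ZBTB33 core (CTCGCGA) and 5.44, 2.86 and 3.65% for the ZNF143 core (ACTACAA). Letters bound by MYB were no commoner at members: CAACNG was in 32.7% of windows with a member and 34.1% of the others, and in 33.6% of all. TAACNG was in 17.8 and 22.1%, and in 20.8% of all. A match is a description of letters and not a bound site.

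Within the members, the CCAAT box followed place in the lists. With 1 promoter per member, 5081 in all and split into 4 equal groups by place, the box was in 61.3% of the group nearest the head, 49.3 and 40.5% of the groups between, and 32.3% of the group nearest the foot. The median GC content of these groups lay between 61.8 and 62.7%. The GC box was in 73.1, 74.6, 73.9 and 66.9% in the same order, and the TATA box in 3.23, 5.75, 6.46 and 7.08%. The printed promoters of Sel1l, Lgr4 and Gm5165 are of the group nearest the head.

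**Figure D5:**
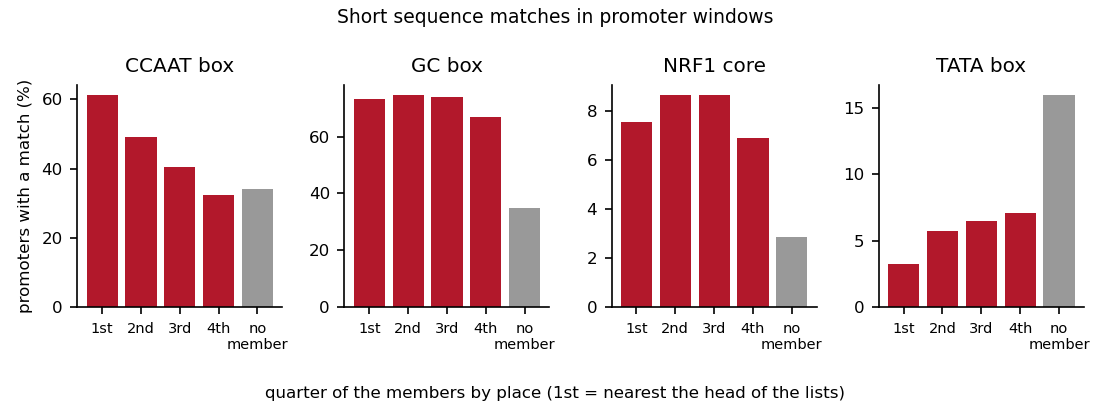
Percent of promoter windows with a match to each of 4 motifs, with members in 4 equal groups by place in the lists (1st is nearest the head) and for windows without a member (grey). CCAAT box matches are in 61.3, 49.3, 40.5 and 32.3% from the 1st group to the 4th, while GC box matches stay between 66.9 and 74.6%.

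Members that changed between lines also differed in promoter sequence. The NRF1 core was in 13.5% of the 777 promoters whose member fell in TetR against WT, in 2.55% of the 157 whose member rose, and in 7.11% of the 4147 not called. The GC box was in 79.7, 59.9 and 71.2% of the same promoters, and the median GC content was 64, 60 and 62%. Outside chromosomes 1 and 11 the NRF1 core was in 14.2, 2.80 and 7.38%. In TetR-MYBTA against WT the NRF1 core was in 9.79% of promoters whose member fell, 3.48% of those whose member rose and 7.63% of those not called. In the same order, CAACNG was in 33.1, 33.0 and 31.9% and the GC box in 76.7, 65.65 and 71.0%. In TetR-MYBTA against TetR the order was another one, with the NRF1 core in 2.93% of promoters whose member fell, 7.82% of those whose member rose and 8.496% of those not called. With promoters in 5 groups by GC content, the median difference of TetR-MYBTA against WT was -3.11 points in the group with least GC and then -5.77, -6.54, -7.47 and -9.63 points. In TetR against WT it was -1.45, -3.73, -4.65, -5.73 and -6.21 points. With an NRF1 core the median of TetR against WT was -9.63, -9.82, -7.93, -9.09 and -11.4 points in the same groups, beside -0.903, -3.51, -4.37, -5.43 and -6.03 points without one.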

How the data were processed

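ATAC-seq was run on 9 libraries, 3 each of TetR-MYBTA, TetR and WT, grouped by their titles. The deposited files are 1 HOMER peak list per library, per the file headers. The submitters' processing notes name Trim Galore 0.6.10, Bowtie2, Picard, deepTools 3.5.5, HOMER 4.11 and mm10. Starts and ends are positions the authors deposited, counted from 1 here, and the score column of the deposited lists is 1 throughout. The sources used here do not say whether reads were shifted for the Tn5 offset. Total tags per library limit how far down each list reaches, and no counts per peak were used, so no interval is given for a single peak.

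Peaks overlapping by 1 bp were merged, and members took the rule stated in the report, with genes, strands and promoters from RefSeq tables of GRCm38.p6. Each constant region's percentile among constant regions was fitted with limma 3.58.1 in R 4.3.3 with a trend in the variance, 3 lines in one fit and no covariate. P-values were adjusted by Benjamini-Hochberg over all 26020 regions and called under 0.05. The fit was also run on simulated data with independent noise, in which single regions were shifted in TetR-MYBTA. The simulation held no shift of whole chromosomes or classes of regions, and its outcome is not given here. No test was made over members, lists or motifs. Members on chromosomes 8 and X were named nowhere because positions over the greater part of both do not line up with the gene table. Named were the 10 highest and 5 lowest members, the 6 largest called differences in each direction without overlap of the lines, 9 fixed genes, and members at the ends of each gene list. One member that this rule names is not reported here. The members and lists were chosen with earlier results of these data known. Alternatives changed the merging, distance, list length, scale, regions ranked, trend, block and libraries. Python 3.11.15, numpy 2.4.6, pandas 2.3.3 and matplotlib 3.10.9 were used.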

Additional observations from a re-analysis of the deposited data

How the results depend on the processing

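The number of members stayed within 1.5 times of 7732 in every setting tried, from 5498 in the upper 50% of each list to 9151 with gene ends within 2.5 kb, and from 7762 to 8146 without 1 library. Counts of called members moved with the regions ranked, the members counted and the scale. TetR-MYBTA against TetR gave 611 that rose and 696 that fell, with 286 that rose by percentile in the whole list, 237 and 412 in ranks without chromosomes 1 and 11, which also drops their members (172 and 680 outside them as ranked in the report), and 424 that fell in ranks among members only. TetR-MYBTA against WT gave 370 that rose and 1607 that fell, with 187 that rose by percentile in the whole list, 196 that rose by limma without the trend, and 738 and 586 in ranks among members only. TetR against WT gave 268 and 1055, with 116 and 289 by percentile in the whole list and 639 and 548 in ranks among members only. Ranks among members only, and counts with chromosomes 8 and X, were added after seeing the data. Leaving out 1 library gave 469 to 589 that rose and 428 to 662 that fell in TetR-MYBTA against TetR, 257 to 368 and 963 to 1552 in TetR-MYBTA against WT, and 128 to 298 and 545 to 1149 in TetR against WT. The cause was not tested, beyond the smaller number of libraries.

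Deviations of libraries with the same replicate number had correlations from -0.0266 to 0.0175 over the 9 pairs. The 18 pairs with unlike numbers gave -0.0216 to 0.0236. The main fit used the numbers as sample names only, and whether they mark shared cultures or batches is not known. With the replicate block, 584 rose and 658 fell in TetR-MYBTA against TetR, 357 and 1558 in TetR-MYBTA against WT, and 248 and 961 in TetR against WT. Members took 47.9% of the first 1000 rows for TetR-MYBTA, 44.4% for TetR and 57.4% for WT, against 40.6, 40.2 and 48.5% of the first 5000. In promoters of genes whose start lies within 1 kb of a member, motif shares moved to 42.2% (CCAAT box), 65.0% (GC box), 19.3% (ETS site), 7.13% (NRF1 core), 7.17% (YY1 site), 5.69% (cyclic AMP core), 10.5% (E-box), 4.24% (ZBTB33), 4.81% (ZNF143), 19% (TAACNG) and 6.45% (TATA box). Of 762 recomputed values of 39 called differences of named members, 743 kept direction and call and 19 lost the call, at Bub1b, Crebbp, Cxcl5, Myb, Pth2 and Sox2. None of the 762 changed sign. Most of the 39 were chosen as large called differences in the same libraries, so the share that kept the call follows in part from the choice. Differences without a constant region to refit were not counted. Lists of equal length and ranks without chromosomes 1 and 11 left 31 of the 39, and an overlap of at least 100 bp left 37.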

Other observations

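A member lay at 210 of 361 zinc finger genes named Zfp (58.2%, against 40.3% of all genes), with a median percentile of 65.3, close to the 64.7 of all members, and their range ran to Zfp933 at a mean of 7.93. In TetR-MYBTA against WT, 12 of their 213 regions rose and 34 fell, near or below the 5.02% and 21.8% of all members. Of 62 replication-dependent histone genes, 32 (51.6%) shared 22 members, and 0 rose and 6 fell in TetR-MYBTA against WT. Histone genes have near-identical copies, so the placing of their reads is uncertain. Hoxc13, the Hox gene with a member, averaged 80.3 ± 5.16 for TetR-MYBTA, 89.1 ± 1.84 for TetR and 92.2 ± 2.27 for WT (SD, n = 3 each), and fell in TetR-MYBTA against WT by 11.9 points (limma adjusted p = 0.00345).

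On chromosome X, where gene positions from 20 Mb did not line up, 77 of the 263 regions that met the rule (29.3%) were higher in TetR against WT. There 1 was lower, and the median was 8.61 points, beside 8.51% higher and 9.24% lower over all constant regions. In TetR-MYBTA against TetR 10 (3.80%) were higher and 78 (29.7%) lower, beside 13.4 and 12.4% over all constant regions. In TetR-MYBTA against WT 21 (7.985%) were higher and 15 (5.70%) lower, beside 13.7 and 14.1%. On chromosome 8, 1 of 101 was higher and 21 (20.8%) lower in TetR-MYBTA against WT. These shares were near or below the 5.02 and 21.8% of the members on the other chromosomes.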
